A study of Mus musculus with 12 samples.

Results

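Metallothioneins are small, cysteine-rich proteins that bind zinc and copper and buffer their free levels inside the cell. The genes examined here are Mt1 and Mt2, which encode the metallothioneins found in most mouse tissues, Mtf1, which encodes the zinc-sensing transcription factor that drives metallothionein genes, and Slc30a1, which encodes the zinc exporter of the plasma membrane (ZnT1). They were taken by name from the deposited array table. All 4 were found among the 19938 genes measured, each by 1 probe set, and each passed, since no filter on low values was used. The set was chosen by the level of Mt2 in these same arrays, which was lower on red cell exposure, so every exposure value of the 4 genes is a description, with no test.

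The series used peritoneal macrophages that thioglycollate had drawn into the peritoneum of C57BL/6 mice, a common inbred strain. Donor mice, 6 weeks old at the start, had 12 weeks of chow or of high-fat food. The macrophages were left without red blood cells (red cells below) or were given red cells from chow-fed or high-fat-fed mice to engulf in culture. RNA of 12 cultures went onto Affymetrix Mouse Gene 1.0 ST arrays, which made 6 groups of 2: chow macrophages without red cells, with chow red cells and with high-fat red cells, and high-fat macrophages without red cells, with chow red cells and with high-fat red cells. The labels number the 2 arrays of a group as animal replicates, and do not say whether cultures of different groups shared a mouse, whether animals were pooled or how long the red cells were given. All values are log2 signals, on which a difference of 1 is a doubling. The p-values weigh a difference against the spread between arrays of the same group. Since sharing and pooling of mice are not stated, this cannot be read as spread between animals.

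In resting cells MTF1 waits in the cytoplasm and nucleus. When free zinc rises it binds zinc through its zinc fingers and attaches to short metal response elements in the promoters of the metallothionein genes and Slc30a1, so that zinc is bound and pumped out. Cadmium, oxidants and glucocorticoids also raise Mt1 and Mt2, and macrophages are known to move zinc and to change metallothionein levels when they meet microbes or cytokines. Red cells carry a large amount of zinc, mainly in carbonic anhydrase.

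Mt2 and Mt1 are neighbours on chromosome 8 of the mouse genome build GRCm38.p6, where RefSeq places Mt2 (gene ID 17750, probe set 10574023) at chr8:94172618-94173567 and Mt1 (gene ID 17748, probe set 10574027) at chr8:94178883-94180327. The 2 genes are 5315 bases apart. Mtf1 (gene ID 17764, probe set 10507961) lies at chr4:124802549-124849800 and Slc30a1 (gene ID 22782, probe set 10352777) at chr1:191906697-191913248. The promoter windows of RefSeq in that build matched all 4 genes, and those of Mt2, Mt1 and Slc30a1 are shown because they hold the letters that MTF1 is known to bind. Each window has 250 bases before the start site and 50 from it, on the plus strand, and capitals mark each match to TGCACNC or TGCGCNC, the core of the metal response element, on either strand. The windows are chr8:94172368-94172667 for Mt2, chr8:94178839-94179138 for Mt1 and chr1:191906531-191906830 for Slc30a1. For Mt1 and Slc30a1 the start site of the window lies inside the span of the gene given above.
Mt2: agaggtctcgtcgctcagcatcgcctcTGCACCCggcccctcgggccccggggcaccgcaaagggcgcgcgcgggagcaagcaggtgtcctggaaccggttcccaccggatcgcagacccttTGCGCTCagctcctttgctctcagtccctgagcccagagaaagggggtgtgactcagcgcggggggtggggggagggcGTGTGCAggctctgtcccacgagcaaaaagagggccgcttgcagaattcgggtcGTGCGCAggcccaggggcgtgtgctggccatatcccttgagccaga
Mt1: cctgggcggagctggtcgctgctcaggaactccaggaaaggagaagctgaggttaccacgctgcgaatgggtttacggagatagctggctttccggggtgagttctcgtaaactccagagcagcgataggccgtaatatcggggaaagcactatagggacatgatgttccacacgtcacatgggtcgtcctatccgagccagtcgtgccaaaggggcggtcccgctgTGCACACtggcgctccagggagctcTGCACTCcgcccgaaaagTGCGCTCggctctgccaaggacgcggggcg
Slc30a1: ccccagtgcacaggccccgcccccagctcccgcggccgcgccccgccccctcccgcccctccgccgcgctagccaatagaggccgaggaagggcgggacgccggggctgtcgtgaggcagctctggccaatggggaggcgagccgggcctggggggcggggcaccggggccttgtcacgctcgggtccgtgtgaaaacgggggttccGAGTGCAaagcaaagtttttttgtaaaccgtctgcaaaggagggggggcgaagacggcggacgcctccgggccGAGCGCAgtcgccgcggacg

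The Mt2 window held 4 matches, which with the start site as base 1 lie at -223 to -217, -128 to -122, -50 to -44 and 5 to 11. The Mt1 window held 3, at -23 to -17, 3 to 9 and 21 to 27. The Slc30a1 window held 2, at -43 to -37 and 31 to 37. The Mtf1 window, chr4:124802299-124802598, held 0. Of 32851 promoter windows of this length in the same table, 25.7% held at least 1 match, 7.11% at least 2, 1.97% at least 3 and 0.517% at least 4. The letters TGACNNNGC, the core of the antioxidant response element, were found once in Mt2 (-79 to -71) and once in Slc30a1 (-82 to -74), against 12.4% of all windows with at least 1, and overlapped no metal response element match. These matches describe the letters of the windows, and their positions and counts depend on the start site used. Windows at other start sites of the same genes were not examined, and binding was not measured.

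The levels of the 4 genes are given first, gene by gene, beginning with the 2 zinc-binding proteins. Mt2 had the widest range of the 4 across the groups. Without red cells it read 9.23 and 9.07 in chow macrophages and 9.12 and 9.09 in high-fat macrophages. With chow red cells it read 8.25 and 8.49 in chow macrophages and 7.51 and 7.65 in high-fat macrophages. With high-fat red cells it read 8.65 and 8.84 in chow macrophages and 8.41 and 8.10 in high-fat macrophages. Thus Mt2 was at a like level in both unexposed groups, and all 8 exposed arrays lay below all 4 unexposed ones. Such a separation downward was seen for 0.767% of all genes, and for 1 of the 4 genes here.

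From highest to lowest, the group means of Mt2 were 9.15 ± 0.11 (SD, n = 2, as for all group means) in unexposed chow macrophages, 9.11 ± 0.02 in unexposed high-fat macrophages, 8.74 ± 0.13 in chow macrophages with high-fat red cells, 8.37 ± 0.17 in chow macrophages with chow red cells, 8.26 ± 0.22 in high-fat macrophages with high-fat red cells and 7.58 ± 0.10 in high-fat macrophages with chow red cells. The 2 unexposed groups overlapped, as did chow macrophages with chow red cells and high-fat macrophages with high-fat red cells. The other neighbours in this order did not overlap, and how many genes part in this way was not counted. High-fat macrophages with chow red cells stood lowest, 0.67 below the group next to them.

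Mt1, the neighbouring gene, kept to a much narrower range. Without red cells it read 10.34 and 10.41 in chow macrophages and 10.83 and 10.74 in high-fat macrophages. With chow red cells it read 10.25 and 10.58 in chow macrophages and 10.36 and 10.25 in high-fat macrophages. With high-fat red cells it read 10.47 and 10.44 in chow macrophages and 10.53 and 10.48 in high-fat macrophages. The 2 unexposed high-fat arrays were the highest of the 12 for Mt1, and the 10 others, from 10.25 to 10.58, crossed one another. Its group means ran from 10.78 ± 0.06 in unexposed high-fat macrophages through 10.50 ± 0.04 (high-fat macrophages with high-fat red cells), 10.45 ± 0.02 (chow macrophages with high-fat red cells), 10.41 ± 0.23 (chow macrophages with chow red cells) and 10.38 ± 0.05 (unexposed chow macrophages) to 10.30 ± 0.08 in high-fat macrophages with chow red cells. The last 4 groups in this order overlapped, neighbour by neighbour.

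Mtf1, the zinc sensor, did not follow Mt2. It read 7.84 and 7.78 in unexposed chow macrophages and 7.22 and 7.72 in unexposed high-fat macrophages. With chow red cells it read 7.88 and 7.90 in chow macrophages and 7.503 and 7.678 in high-fat macrophages. With high-fat red cells it read 7.74 and 7.86 in chow macrophages and 7.57 and 7.58 in high-fat macrophages. All 6 chow macrophage arrays lay above all 6 high-fat ones, by as little as 7.74 against 7.72, and 1 unexposed high-fat array, replicate 1 at 7.22, lay far below the rest. The group means were 7.89 ± 0.01 with chow red cells, 7.81 ± 0.04 without red cells and 7.80 ± 0.08 with high-fat red cells in chow macrophages, and 7.59 ± 0.12, 7.47 ± 0.35 and 7.57 ± 0.00 in the same order in high-fat macrophages. Within each macrophage diet the groups overlapped, except chow macrophages with chow red cells, which lay above the others. How many genes separate all chow from all high-fat arrays was not counted. Over the exposed arrays alone, 6.77% of genes lay lower in every high-fat array than in any chow array.

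Slc30a1, the exporter, fell into 2 tiers by macrophage diet. In chow macrophages it read 9.29 and 9.40 without red cells, 8.93 and 8.87 with chow red cells and 8.99 and 9.04 with high-fat red cells. In high-fat macrophages it read 8.59 and 8.71 without red cells, 8.35 and 8.43 with chow red cells and 8.51 and 8.56 with high-fat red cells. Every chow macrophage array was above every high-fat one, and in each tier the order was no red cells, high-fat red cells, chow red cells. The group means were 9.35 ± 0.08, 9.01 ± 0.03 and 8.90 ± 0.04 in that order in chow macrophages, and 8.65 ± 0.09, 8.53 ± 0.03 and 8.39 ± 0.05 in high-fat macrophages. No 2 neighbours in this order of 6 overlapped. As for Mtf1, the share of genes that separate by macrophage diet was counted over exposed arrays alone (6.77%).

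**Figure D1:**
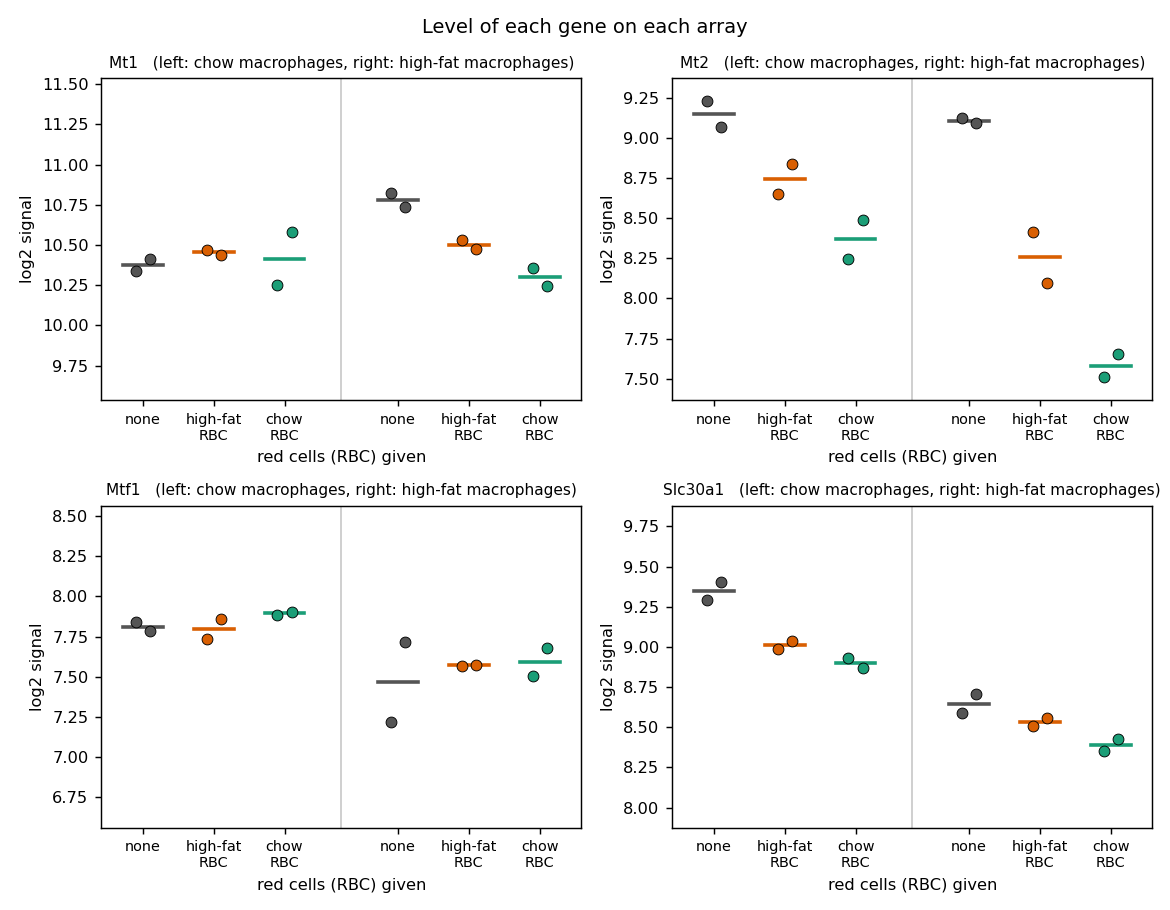
Log2 signal (vertical axis) of Mt1, Mt2, Mtf1 and Slc30a1 on each of the 12 arrays, by macrophage diet and red cells given; points are arrays and lines are means of 2, and each panel spans the same number of log2 units. Mt2 drops from between 9.07 and 9.23 to as little as 7.51 with chow red cells in high-fat macrophages, and Slc30a1 is lower in every high-fat array than in any chow array.

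Red cell exposure was compared with no red cells to see which genes move when macrophages engulf red cells. Averaged over both macrophage diets and both kinds of red cells, Mt2 was lower by a log2 difference of -0.89 ± 0.08 (SE of the limma estimate, as for all differences), or 1.85-fold, which placed it at 8 from the lowest of 19938 differences. Slc30a1 was lower by -0.29 ± 0.06, or 1.22-fold, at 341 from the lowest. Mt1 differed by -0.16 ± 0.07 and Mtf1 by 0.07 ± 0.08, and the Mtf1 value was -0.05 or 0.20 with unexposed high-fat replicate 1 or 2 dropped. The 2 metallothioneins thus had very unequal differences, although they are neighbours and both have metal response element letters in their windows. The median difference of the 4 genes was -0.22, and 1 of the 4 was positive. Mt2, whose fall chose the set, is part of this median, so it cannot be weighed against all genes. Over all genes, 5.23% were called higher and 2.20% lower at an adjusted p below 0.05. In such cultures fewer cells of a type and less RNA per cell cannot be told apart.

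In chow macrophages exposure came with Mt2 at -0.59 ± 0.11 (1.51-fold lower) and Slc30a1 at -0.39 ± 0.08 (1.31-fold lower). Mt1 differed by 0.06 ± 0.10 and Mtf1 by 0.03 ± 0.12. Both are small beside their errors: Mt1 was 0.14 or -0.02 when replicate 1 or 2 of chow macrophages given chow red cells was dropped, and Mtf1 was -0.03 after quantile normalization. On the arrays, Mt2 and Slc30a1 were below both unexposed chow arrays in all 4 exposed ones, a separation that 20.6% of genes showed. In high-fat macrophages Mt2 had the lowest difference of all genes, -1.19 ± 0.11 (2.28-fold lower). Mt1 differed there by -0.38 ± 0.10 (1.30-fold lower, 135 from the lowest), Slc30a1 by -0.19 ± 0.08 (1.14-fold lower) and Mtf1 by 0.11 ± 0.12. Mt1, Mt2 and Slc30a1 lay below both unexposed arrays in all 4 exposed high-fat arrays, against 8% of genes. The Mtf1 difference in high-fat macrophages rested on the unexposed arrays, at -0.14 without replicate 1 and 0.36 without replicate 2. Over all genes, 8.22% were called higher and 4.51% lower in chow macrophages, and 0.878% and 0.201% in high-fat macrophages.

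The response of high-fat macrophages minus that of chow macrophages was -0.60 ± 0.16 for Mt2 and -0.44 ± 0.14 for Mt1. So both metallothioneins had the more negative exposure difference in high-fat macrophages. For Slc30a1 it was 0.20 ± 0.12, with the larger fall in chow macrophages, and for Mtf1 0.08 ± 0.17. With 1 unexposed high-fat array left out, the Mtf1 value was -0.17 (replicate 1) or 0.33 (replicate 2). Over all genes, 5.67% were called in this contrast.

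**Figure D2:**
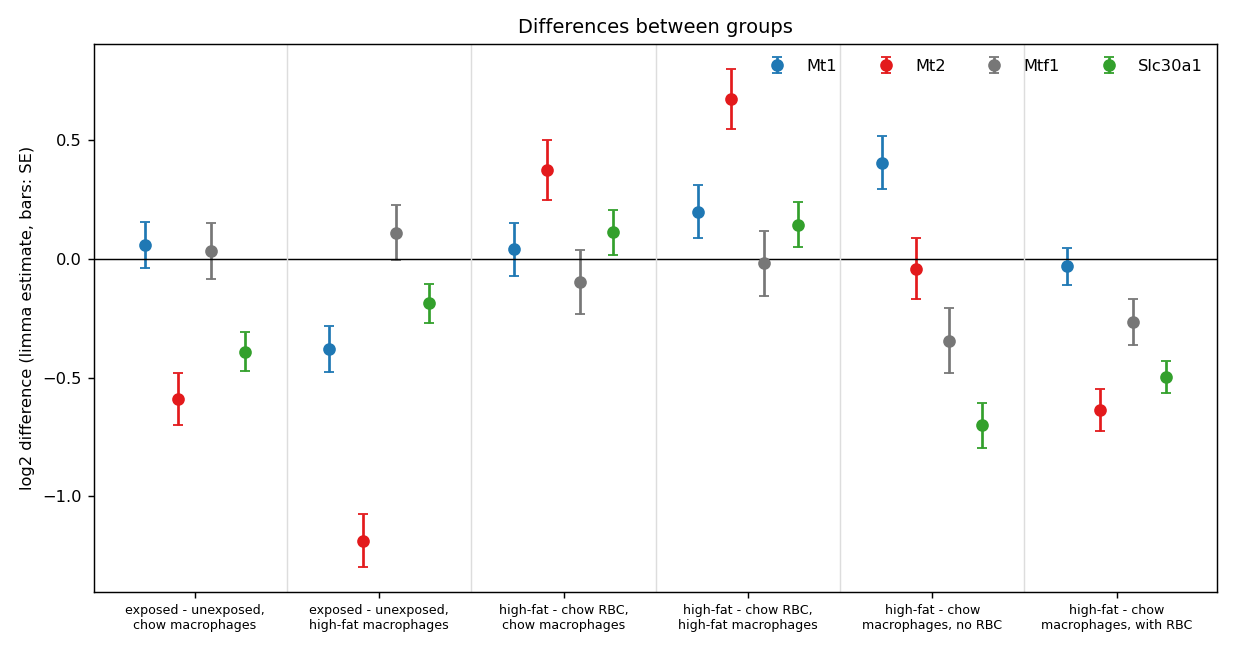
Log2 differences (vertical axis, points) of the 4 genes in 6 comparisons, with bars of 1 SE from the limma model. Mt2 lies lowest in both exposure comparisons (-0.59 and -1.19) and highest in both red cell diet comparisons (0.38 and 0.67), while Slc30a1 lies lowest in the first macrophage diet comparison (-0.70).

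High-fat red cells were compared with chow red cells among exposed cultures, to see whether the diet of the red cell donor matters. Mt2 was higher with high-fat red cells by 0.52 ± 0.09 averaged over macrophage diets (1.44-fold), and stood 9 from the highest of all genes. Levels of Mt2 in high-fat macrophages with each kind of red cells were known when the genes were chosen, so its values that use them are a description, with no test. The other 3 genes differed by 0.12 ± 0.08 (Mt1, interval -0.05 to 0.29), -0.06 ± 0.10 (Mtf1, -0.26 to 0.15) and 0.13 ± 0.07 (Slc30a1, -0.02 to 0.27), each with an adjusted p of 1. None of these 3 was called by limma, and none had an unadjusted p below 0.05. Over all genes 2 were called (0.0100%), and 629 had an unadjusted p below 0.05.

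Within chow macrophages Mt2 was higher with high-fat red cells by 0.38 ± 0.13 (interval 0.10 to 0.65; unadjusted p = 0.0108, adjusted p = 1, limma). The arrays read 8.65 and 8.84 with high-fat red cells and 8.25 and 8.49 with chow red cells. Within high-fat macrophages the difference was 0.67 ± 0.13 (1.60-fold), with arrays at 8.41 and 8.10 against 7.51 and 7.65. How many genes separate such pairs of arrays was not counted. Mt1, Mtf1 and Slc30a1 differed by 0.04, -0.10 and 0.11 in chow macrophages and by 0.20, -0.02 and 0.14 in high-fat macrophages, each with an adjusted p of 1. The difference of the 2 red cell diet effects was 0.30 ± 0.18 for Mt2. It uses the known levels in high-fat macrophages, so whether the effect was larger there was not tested. For Mt1, Mtf1 and Slc30a1 this difference of effects was 0.16, 0.08 and 0.03, with adjusted p of 1. Calls over all genes were 0% in chow macrophages (555 genes had an unadjusted p below 0.05), 0.0251% in high-fat macrophages and 0% for the difference (718 unadjusted).

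High-fat macrophages were compared with chow macrophages to see what the diet of the macrophage donor changed before and after exposure. Slc30a1 fell in both settings. Without red cells it was lower by -0.70 ± 0.09 (1.63-fold; adjusted p = 0.000148, limma), and with red cells by -0.50 ± 0.07 (1.41-fold; adjusted p = 0.000439), lower on all arrays of each setting. With red cells the high-fat arrays of Slc30a1 and of Mtf1 lay below every chow array, which 6.77% of genes did. The Slc30a1 calls were kept under every alternative fit and without each array in turn. Over all genes 8.12% were called higher and 5.82% lower without red cells, and 2.20% and 2.65% with them.

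Mt1 rose in unexposed high-fat macrophages by 0.41 ± 0.11 (1.33-fold; adjusted p = 0.0257, limma), and its difference with red cells was -0.03 ± 0.08 (adjusted p = 0.911). The first call was lost without replicate 1 or 2 of the unexposed chow macrophages (adjusted p = 0.137 and 0.0831), without replicate 1 of the unexposed high-fat macrophages (0.105), with array weights (0.0619) and in a fit to the compared arrays alone (0.0668). The second difference turned to 0.05 when replicate 2 of chow macrophages given chow red cells was dropped.

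For Mt2 the larger difference was the one with red cells, where for Mt1 it was the one without. Its difference without red cells was -0.04 ± 0.13 (interval -0.31 to 0.23; adjusted p = 0.896, limma), and it was lower in exposed high-fat macrophages by -0.64 ± 0.09 (1.55-fold). The first value changed sign, to 0.04, without replicate 1 of the unexposed chow macrophages, and to 0.05 after quantile normalization. The second is a description, with no test, since the exposed levels of Mt2 in high-fat macrophages were known when the genes were chosen. These 2 comparisons are not independent of the difference in exposure response given above, which is the second minus the first.

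Mtf1 was lower by -0.34 ± 0.14 without red cells (1.27-fold; adjusted p = 0.12, limma) and by -0.26 ± 0.10 with them (1.20-fold; adjusted p = 0.159), and passed in neither. Without replicate 2 of the unexposed high-fat macrophages the first was -0.59 and called (adjusted p = 0.0045), and without replicate 1 it was -0.09 (0.661). The second was called when either of these arrays was dropped (0.0349 for each) and in a fit to the compared arrays alone (0.0477). Without red cells, then, 1 of the 4 genes was called higher and 1 lower. With them, and with Mt2 left aside, 1 of the other 3 was called, lower.

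Zinc also moves through 9 further exporters of the SLC30 family and 14 importers of the SLC39 family, and all 23 were measured. On exposure, averaged over macrophage diets, 3 importers rose, 1 importer fell and the 9 exporters did not pass. Over all genes, 5.23% were called higher there and 2.20% lower. The median difference over the 23 was -0.00, beside -0.02 over all genes. Slc39a10, an importer of the plasma membrane, had the largest change among them. It read 6.98 and 7.02 in unexposed chow macrophages, 8.19 and 8.16 with chow red cells and 7.77 and 7.69 with high-fat red cells. In high-fat macrophages it read 7.39 and 7.48, 8.26 and 8.26, and 7.88 and 8.003 in the same order. Every exposed array was above every unexposed one, and the share of all genes that separated upward is not given here.

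Slc39a10 rose by 0.81 ± 0.06 averaged over macrophage diets (1.75-fold; adjusted p = 1.2e-06, limma), by 0.95 ± 0.08 in chow macrophages (adjusted p = 3.75e-06) and by 0.67 ± 0.08 in high-fat macrophages (adjusted p = 0.000577). These 3 calls held under every alternative fit and without each array in turn. From the lowest to the highest, its group means were 6.999 ± 0.0334 in unexposed chow macrophages, 7.44 ± 0.07 in unexposed high-fat macrophages, 7.73 ± 0.05 in chow macrophages with high-fat red cells, 7.94 ± 0.09 in high-fat macrophages with high-fat red cells, 8.17 ± 0.02 in chow macrophages with chow red cells and 8.26 ± 0.00 in high-fat macrophages with chow red cells. This is the order of Mt2 turned over, save that chow macrophages with chow red cells and high-fat macrophages with high-fat red cells change places. With high-fat rather than chow red cells Slc39a10 was lower by -0.38 ± 0.07 averaged over macrophage diets, and did not pass (adjusted p = 0.121, limma; 0.0267 with an intensity trend and robust shrinkage).

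**Figure D3:**
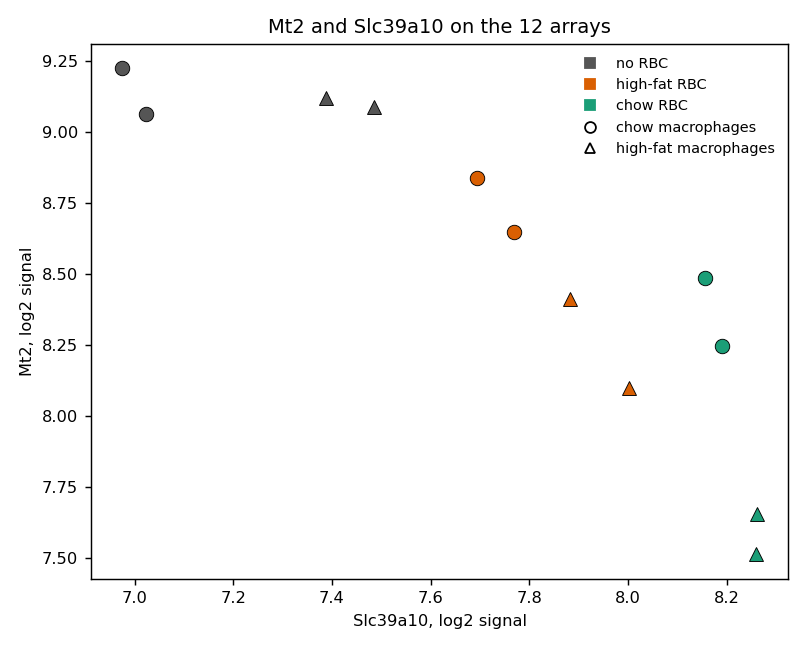
Log2 signal of Mt2 (vertical axis) against that of the zinc importer Slc39a10 (horizontal axis); each point is 1 of the 12 arrays, colours give the red cells and shapes the macrophage diet. Arrays without red cells sit at upper left and high-fat macrophages with chow red cells at lower right, with Mt2 at 7.51 and 7.65 and Slc39a10 at 8.26.

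The other transporter calls on exposure were smaller. Averaged over macrophage diets, Slc39a8, an importer of zinc and manganese, rose by 0.25 ± 0.06 (adjusted p = 0.0176, limma), Slc39a11 rose by 0.28 ± 0.07 (0.032) and Slc39a4, the importer of dietary zinc in the gut, fell by 0.30 ± 0.07 (0.0207). The count of 4 became 2 without replicate 2 of chow macrophages with high-fat red cells, without replicate 1 or 2 of the unexposed chow macrophages or without replicate 1 of the unexposed high-fat macrophages. Slc39a11 alone lost its call without any 1 of 9 arrays (adjusted p up to 0.147). In chow macrophages 4 of the 23 rose (Slc30a5, Slc39a8, Slc39a10, Slc39a11) and 1 fell (Slc39a4), and this 5 became 3 without replicate 1 or 2 of chow macrophages with chow red cells, and 2 without replicate 1 of those with high-fat red cells or replicate 2 of the unexposed. Of all genes, 8.22% were called higher and 4.51% lower in chow macrophages, and 0.878% and 0.201% in high-fat macrophages. The difference in response was called for 5.67% of all genes. In high-fat macrophages Slc39a10 was the 1 call among the 23. Slc39a14 was the 1 call for the difference in response (0.53 ± 0.14, adjusted p = 0.0453), lost without any 1 of 9 arrays (up to 0.191).

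**Figure D4:**
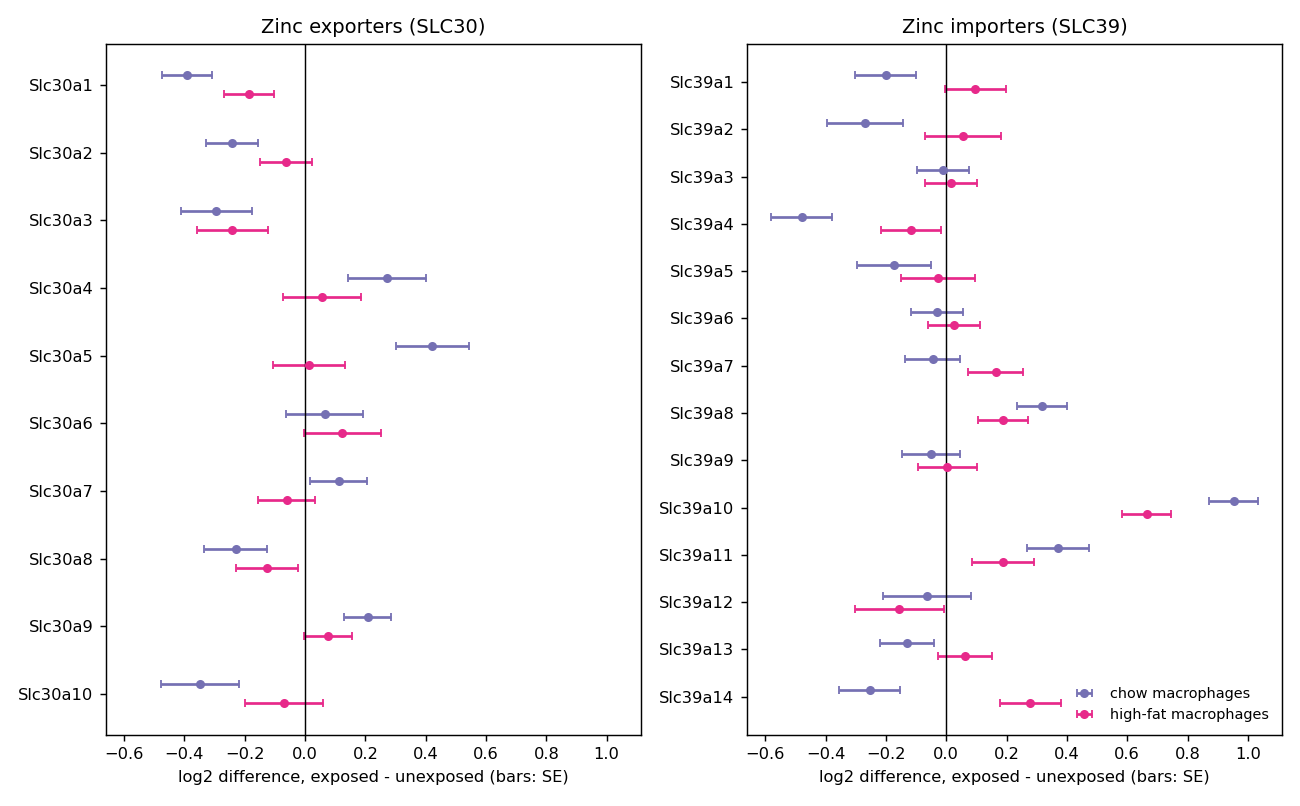
Log2 difference on red cell exposure (horizontal axis, bars of 1 SE) of each SLC30 exporter (left panel, with Slc30a1) and SLC39 importer (right panel), in chow and in high-fat macrophages. Slc39a10 stands apart at 0.95 and 0.67, and Slc30a1, at -0.39 and -0.19, is among the lowest exporters.

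Red cell diet called 0 of the 23 in any of its contrasts with limma, and 1, 2, 2 and 1 of them had an unadjusted p below 0.05 (averaged, in chow macrophages, in high-fat macrophages and for the difference). Between macrophage diets, 8.12% of all genes were called higher and 5.82% lower in high-fat macrophages without red cells, and 2.20% and 2.65% with them. Of the 23, without red cells, 4 were higher in high-fat macrophages and 2 lower. Slc39a10 was higher by 0.44 ± 0.09 (adjusted p = 0.00565, limma), Slc39a8 by 0.47 ± 0.10 (0.00387), and Slc39a14, an importer of zinc and iron, was lower by -0.57 ± 0.12 (0.00427). These 3 were called without each array in turn. Slc30a5, an exporter of the secretory pathway, Slc39a11 and Slc39a4 made up the rest. Slc30a5 lost its call without replicate 2 of the unexposed chow macrophages (adjusted p = 0.309) or replicate 1 of the unexposed high-fat ones (0.162), and Slc39a4 without replicate 2 of either (0.104 and 0.0714). Slc39a11 lost it without replicate 1 of the unexposed chow macrophages (0.248), replicate 2 of the unexposed high-fat ones (0.204) or either replicate of chow macrophages with high-fat red cells (0.0515). With red cells, 1 of the 23 was called: Slc39a8 was higher in high-fat macrophages by 0.34 ± 0.07 (0.00804), a call lost without replicate 2 of chow macrophages with high-fat red cells (0.0562).

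The remaining metallothioneins, Mt3 and Mt4, are known from brain and squamous epithelium. Neither passed in any comparison by limma, and on exposure averaged over macrophage diets both had an unadjusted p below 0.05. Mt3 differed there by -0.23 ± 0.08 (adjusted p = 0.093) and Mt4 by -0.19 ± 0.08 (0.183), and 1 of them was called when replicate 2 of unexposed high-fat macrophages was dropped.

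By the likeness rule, each of the 4 genes was set against 2892 others whose group means span at least 0.5, by Pearson r over the 12 arrays. These arrays share 6 groups, so r follows the group means, and it is given as a description. Nearest to Mt2 were Nr1d2 (r = 0.888), Hrh4 (0.859), Mir106b (0.848), Zfp113 (0.818) and Snora75 (0.814). Most opposite were Fhl1 (-0.911), the fatty acid desaturase Scd1 (-0.897) and the lipoxygenase Alox12 (-0.895). Alox12 is also among the platelet markers given below, and rose on averaged exposure by 1.01 ± 0.11. Nearest to Mt1 were Cdc6 (0.9), Neurl2 (0.855), Rasgrp3 (0.839), Zfp580 (0.83) and Ss18l2 (0.824), and most opposite Dennd4a (-0.857), Ddx54 (-0.85) and the cholesterol exporter Abca1 (-0.833). For Mtf1 they were Clec2g (0.929), Elf4 (0.921), Bak1 (0.908), Eif3d (0.907) and Eif2s3x (0.906), against Miga1 (-0.901), Jmjd8 (-0.859) and Zfp580 (-0.848). For Slc30a1 they were Hspa9 (0.97), Smg9 (0.963), Tmem178 (0.963), the stress transcription factor Atf4 (0.959) and Klf6 (0.959), against Arsb (-0.979), Gng10 (-0.969) and Entpd4 (-0.96). The nearest lists of the 4 genes shared no gene, and Zfp580 was near Mt1 and opposite to Mtf1.

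Among the 4 genes themselves, r over the 12 arrays was 0.686 for Mt2 with Slc30a1, 0.639 for Mtf1 with Slc30a1 and 0.523 for Mt1 with Mt2. It was 0.122 for Mt2 with Mtf1, -0.173 for Mt1 with Slc30a1 and -0.502 for Mt1 with Mtf1. Of the other 3, the exporter gene was the one nearest to the sensor gene and also to Mt2.

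Markers of other blood cells moved with exposure, and so with Mt2 and Slc30a1. Among neutrophil markers 6 of 13 rose and 0 fell, and the log2 of their summed signal went from between 10.43 and 10.65 unexposed to between 11.37 and 12.14 exposed. S100a9, a neutrophil calcium-binding protein that also binds zinc, rose by 5.76 ± 0.09 (adjusted p = 2.43e-14, limma), S100a8 rose by 0.73 ± 0.08 (6.82e-05) and the platelet chemokine Ppbp rose by 4.44 ± 0.18 (7.92e-09). Among platelet markers 5 of 8 rose (summed 10 to 11.12 unexposed, 10.53 to 11.55 exposed), and among erythroid markers 2 of 12 (8.052 to 8.156, and 8.161 to 8.782). Among B cell markers 2 of 7 fell (8.614 to 8.847, and 8.541 to 8.724), among T and NK cell markers 1 of 6 fell (6.759 to 7.001, and 6.75 to 6.964), and among mesothelial and fibroblast markers 2 of 9 rose (9.551 to 9.949, and 9.825 to 10.08). Macrophage markers summed to between 13.65 and 13.93 unexposed and between 13.79 and 13.95 exposed, against array medians of 4.84 to 4.96 over probe sets. Of these 8, 3 rose (Mertk, Cd14, Fcgr1) and Adgre1 fell. The shares of all genes called on averaged exposure were 5.23% higher and 2.20% lower. The strongest genes of a list dominate its sum, which need not follow the other markers. In unexposed chow macrophages Pf4 read 10.92 and 10.87 beside a platelet sum of 11.08 to 11.12. S100a8 read 10.11 and 9.90 there, beside a neutrophil sum of 10.45 to 10.63. Cd22, the highest B cell marker, was the 1 of 7 with a positive difference on exposure of chow macrophages (0.28).

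In high-fat macrophages, where Mt2 differed most by red cell diet, the neutrophil sum was 11.37 to 11.5 with chow red cells and 12.08 to 12.14 with high-fat red cells, while the platelet sum was 10.94 to 11.04 and 10.53 to 10.86. The erythroid sum was 8.416 to 8.782 with chow red cells and 8.161 to 8.333 with high-fat red cells, and Alas2, the haem synthesis enzyme of red cell precursors, was lower with high-fat red cells by -1.32 ± 0.24 (adjusted p = 0.13, limma). Between macrophage diets without red cells, beside the differences of Slc30a1 and Mt1, 6 of 7 B cell markers were lower and 1 higher, 4 of 8 macrophage markers were lower and 1 higher, and 3 of 8 platelet and 3 of 13 neutrophil markers were lower in high-fat macrophages. In the same comparison 3 of 9 mesothelial and fibroblast markers (Col1a1, Col1a2, Pdgfra) and 1 of 12 erythroid markers (Bpgm) were higher. With red cells, 3 of 7 B cell markers and 3 of 8 macrophage markers were lower, and 1 B cell marker was higher. Also lower there were 2 of 13 neutrophil markers (Retnlg, Mmp8), 1 of 8 platelet markers (Pf4) and 1 of 9 mesothelial and fibroblast markers (Dcn). The shares of all genes between macrophage diets were 8.12% higher and 5.82% lower without red cells, and 2.20% and 2.65% with them. No marker is at 0 on this log2 scale, and no detection calls were used here. The part of these markers in the differences of Mt1, Mt2, Mtf1 and Slc30a1 was not tested.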

How the data were processed

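The log2 signals per probe set are those of the table the authors deposited. That the scale is log2 was inferred from their range, and the authors' summarization and normalization are not given in the sources used here. The labels' protocols name an RNeasy kit for RNA, which was then made into biotin-labelled target with the WTA-Ovation FFPE V2 and Encore kits. Array medians lay between 4.84 and 4.96 and correlations between arrays between 0.982 and 0.997, and no 2 arrays were identical. Signal over background is unknown. Precision is limited by the number of arrays.

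Of 35557 probe sets, 35556 had values and 23410 were listed in the probe table. The 21789 with 1 gene symbol were kept, the 1621 with several were left out, and for 999 genes with several probe sets the one of highest mean was used, which left 19938 genes. The limma package (3.58.1, R 4.3.3) fitted group means over the 12 arrays, with 6 residual and 7.69 prior degrees of freedom, and 10 contrasts were taken. Calls needed an adjusted p below 0.05 (Benjamini-Hochberg, across the 19938 genes). The procedure was tested on simulated data. The alternatives were quantile normalization, removal of the lowest 33.3% of genes, an intensity trend with robust shrinkage, array weights, a replicate block (over all groups and within macrophage diet), averaging the probe sets of each gene, the compared arrays alone, and leaving out each array.

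The 4 genes and the lists (SLC30, SLC39, other metallothioneins, copper handling, metal and oxidant stress, glucocorticoid-induced genes, and cell type markers) were chosen with earlier results of these data known. The rule for named genes took the 4 genes, up to 4 genes of smallest p per list and comparison, S100a8, S100a9 and Ppbp, and for each of the 4 genes the 5 of highest and 3 of lowest r. Genes that make up a small count of calls and were not among these were named after their values were seen. Promoter windows came from RefSeq.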

Additional observations from a re-analysis of the deposited data

Results flagged for a closer look

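In 7 genes of the zinc, copper, stress and glucocorticoid lists the exposure response of high-fat macrophages differed from that of chow macrophages by limma's test of that difference, with responses of opposite sign. The 4 genes described above are not in these lists and their exposure values have no test, so they could not be flagged here. No explanation was tested. The zinc transporter, copper, stress and glucocorticoid lists held 23, 8, 10 and 10 measured genes. Of all genes, 5.67% were called for this difference. Among cell type markers the same difference was called, higher in high-fat macrophages, for 4 of 8 macrophage, 2 of 13 neutrophil, 1 of 8 platelet and 3 of 7 B cell markers, and lower for 1 neutrophil and 3 of 9 mesothelial and fibroblast markers.

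The cystine importer Slc7a11 differed by 1.53 (adjusted p = 9.42e-06, limma), with responses of -0.72 in chow and 0.80 in high-fat macrophages. Slc31a2, a copper transporter, differed by 1.41 (0.000405; -1.05 and 0.37). The quinone reductase Nqo1 differed by 0.87 (0.0033; -0.45 and 0.42), and the phosphatase Dusp1 by 0.78 (0.0167; -0.34 and 0.44). The copper importer Slc31a1 differed by 0.79 (0.0444; -0.61 and 0.17), the zinc importer Slc39a14 by 0.53 (0.0453; -0.25 and 0.28), and the sulfiredoxin gene Srxn1 by 0.46 (0.032; -0.25 and 0.21).

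Each such difference equals the macrophage diet difference with red cells minus that without. For Slc7a11 these were -0.36 with red cells and -1.89 without. Slc31a2 had means of 9.97 in unexposed chow and 8.68 in unexposed high-fat macrophages, and of 8.91 to 9.06 in the exposed groups. Slc7a11, Slc31a2 and Nqo1 were called without each of the 12 arrays in turn. Dusp1 lost its call without replicate 1 of the unexposed chow macrophages (adjusted p = 0.0846) or of the unexposed high-fat macrophages (0.0685). Slc39a14 and Slc31a1 lost theirs without any 1 of 9 arrays (up to 0.191 and 0.158) and Srxn1 without any 1 of 10 (up to 0.154). Slc39a14 and Srxn1 also lost them with array weights (0.0846 and 0.0534).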

How the results depend on the processing

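Of the values of the 4 genes, 305 of 312 under other settings and 459 of 480 without single arrays kept their direction and side of the threshold or, for exposure values, which have no test, moved by less than the replicate SD. Some of the latter still changed sign: Mtf1 on averaged exposure (-0.05 to 0.20 without single arrays), Mt1 on exposure of chow macrophages (-0.02 to 0.14) and Mtf1 there after quantile normalization (-0.03). Mt1 at 0.41 (unexposed macrophage diet) did not pass with array weights or the compared arrays alone. Mtf1 at -0.26 (macrophage diet with red cells) passed with the compared arrays alone. The Mt2 red cell diet differences of 0.52 and 0.67 (high-fat macrophages) kept these values with an intensity trend, and are a description, with no test. Quantile normalization turned Mt2 to 0.0539 (unexposed macrophage diet) and Slc30a1 to -0.000887 (difference in red cell diet effect), and took the share of higher calls on averaged exposure from 70.4% to 57.5%. The cause was not tested.

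Calls over all genes became, on exposure of high-fat macrophages, 101 with array weights and 92 with the compared arrays alone (215 as reported). For red cell diet they became 11 with an intensity trend, 5 with weights and 1 with a replicate block within macrophage diet (2 as reported, averaged), 1 with a replicate block and 2 with it within macrophage diet (0, chow macrophages), 13 with a trend, 9 with weights, 3 with the block within macrophage diet and 0 with the compared arrays (5, high-fat macrophages), and 1 with the compared arrays (0, difference). For unexposed macrophage diet they became 1777 with the compared arrays alone (2780). The count of zinc transporters became 0 with weights or either block (1, difference in exposure response) and 1 with a trend (0, averaged red cell diet).

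Without single arrays, calls over all genes ran from 681 to 2812 (averaged exposure), 956 to 3093 (chow), 120 to 652 (high-fat), 558 to 1115 (difference), 1 to 4, 0 to 2, 0 to 6 and 0 to 1 (red cell diet, in the same order), 1600 to 2746 and 564 to 1199 (macrophage diet without and with red cells). Zinc transporters ran from 2 to 6 (averaged), 2 to 6 (chow), 0 to 1 (difference) and 0 to 1 (macrophage diet with red cells). On exposure of high-fat macrophages Mtf1 ran from -0.14 to 0.36 and Slc30a1 from -0.25 to -0.13, and for the difference in exposure response from -0.17 to 0.33 and from 0.14 to 0.26. For red cell diet Mt1 ran from -0.12 to 0.21 (chow) and Mtf1 from -0.11 to 0.0694 (high-fat), and for the difference in effect Mt1 from -0.00568 to 0.32, Mtf1 from -0.0092 to 0.17 and Slc30a1 from -0.00656 to 0.0699. For macrophage diet without red cells Mt1 ran from 0.36 to 0.45, Mt2 from -0.12 to 0.0396 and Mtf1 from -0.59 to -0.0937, and with red cells Mt1 from -0.11 to 0.0517 and Mtf1 from -0.31 to -0.22.

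Same-numbered arrays of 2 groups deviated together with r above 0.1 in 2 of 15 pairs of groups (-0.226 to 0.344), so the numbers were not taken to pair the samples. With the number as a replicate block, no value of the 4 genes changed its call. Among genes called for the difference in exposure response, Slc31a1 (adjusted p = 0.0602) and Slc39a14 (0.054, and 0.051 with the block within macrophage diet) lost theirs. Signal over background was unknown.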

Other observations

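Genes of neighbouring pathways that can also act on metallothioneins, or take metals, are given here by list. Of all genes, 8.22% were called higher and 4.51% lower on exposure of chow macrophages, and 0.878% and 0.201% in high-fat ones. Averaged over diets the shares were 5.23% and 2.20%. For macrophage diet they were 8.12% and 5.82% without red cells, and 2.20% and 2.65% with them. In the copper list, red cell exposure lowered 2 of 8 genes in chow macrophages, Slc31a2 by -1.05 ± 0.13 (adjusted p = 0.000138, limma) and Slc31a1 by -0.61 ± 0.15 (0.015). The second call was lost without replicate 1 or 2 of the unexposed chow macrophages (0.113 and 0.0854). In high-fat macrophages 0 of 8 passed by limma (1 had an unadjusted p below 0.05), and 1 was called without replicate 2 of the unexposed. Averaged over diets Slc31a2 was the 1 call, at -0.34 ± 0.09 (0.0438), kept only without replicate 2 of high-fat macrophages with high-fat red cells or without the first unexposed high-fat array (replicate 1). Both were lower in unexposed high-fat than in unexposed chow macrophages, by -1.29 ± 0.15 (4.55e-05) for Slc31a2 and -0.94 ± 0.17 (0.00193) for Slc31a1. With red cells the 1 call was the copper pump Atp7a (-0.32 ± 0.07, adjusted p = 0.0181), lost without replicate 1 of any exposed group or replicate 2 of high-fat macrophages with chow red cells (up to 0.108). Red cell diet called 0 of 8 by limma, with 0 at an unadjusted p below 0.05.

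Of 11 metal and oxidant stress genes, 10 were measured. In unexposed high-fat macrophages 7 of them were lower than in unexposed chow macrophages, with Slc7a11 at -1.89 ± 0.11 (adjusted p = 2.96e-08, limma), Nqo1 at -1.02 ± 0.12 (5.29e-05) and Hmox1, the haem-degrading enzyme, at -0.46 ± 0.12 (0.0154). The Hmox1 call was lost without replicate 1 or 2 of the unexposed chow macrophages (0.0579 and 0.104), with unexposed high-fat replicate 1 dropped (0.125) and with the compared arrays alone (0.0684). The 7 became 4 without replicate 2 of the unexposed chow macrophages. Exposure lowered 5 of 10 in chow macrophages, among them Slc7a11 (-0.72 ± 0.09, 0.000142), and this became 3 and 1 without replicates 1 and 2 of the unexposed chow macrophages. In high-fat macrophages Slc7a11 rose (0.80 ± 0.09, 0.000324) as the 1 call, or 1 of 2 without replicate 2 of the unexposed. Averaged over diets 0 of 10 passed by limma (3 unadjusted), with 2 called without replicate 1 of the unexposed chow macrophages and 1 without replicate 2 of the unexposed high-fat ones. With red cells Slc7a11 was the 1 gene lower in high-fat macrophages (-0.36 ± 0.08, 0.011), lost without replicate 1 of chow macrophages with high-fat red cells or replicate 2 of high-fat macrophages with chow red cells (0.0603 and 0.0622).

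Of 10 glucocorticoid-induced genes, Dusp1 (-1.40 ± 0.14, adjusted p = 9.9e-06, limma), Per1 (-0.64 ± 0.13, 0.00348) and Cd163 (-0.33 ± 0.09, 0.0336) were lower in unexposed high-fat macrophages. Dusp1 was also lower with red cells (-0.62 ± 0.10, 0.00199). The feedback inhibitor Errfi1 rose on exposure averaged over diets (0.46 ± 0.07, 0.00119), and the calls of Dusp1, Per1 and this one of Errfi1 held without each array in turn. In chow macrophages Errfi1 was the 1 call on exposure (0.50 ± 0.10, 0.00401; lost without replicate 2 of the unexposed, 0.101), and in high-fat macrophages 0 of 10 passed by limma, with 6 at an unadjusted p below 0.05, while 3 were called higher without replicate 2 of the unexposed high-fat macrophages and 1 without replicate 1 of high-fat macrophages with high-fat red cells. The other averaged calls, Il1r2 higher (0.33 ± 0.09, 0.0348) and Klf9 lower (-0.24 ± 0.07, 0.0444), were lost without any 1 of 8 and of 10 arrays, Cd163 without any 1 of 6, and Errfi1 with red cells (-0.31 ± 0.08, 0.0414) without any 1 of 7. Red cell diet called 0 of these 10 and 0 of the 10 stress genes by limma, averaged over macrophage diets, with 2 and 0 at an unadjusted p below 0.05.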
